A study of Mus musculus with 1753 samples.

Results

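Cluster 6 is one of the 9 fibroblast clusters of adult mouse skeletal muscle in this series. The study placed it among its endomysial clusters. It anticipated that these also hold fibroadipogenic progenitors and perivascular fibroblasts, and left that for further work. Cluster 6 is here called after its markers Sfrp5, Klf5 and Cyp2f2. Its members are the cells whose label gives cluster 6: 231 of 1753 cells, of which 1566 were fibroblasts and 187 were mural cells, the pericytes and smooth muscle of vessel walls. The cells were sorted one by one from gastrocnemius and soleus muscle of male mice of 10 to 20 weeks, and each was sequenced by Smart-seq2, a full-length RNA-seq method for single cells without molecular identifiers. At least 3 cells of the cluster came from each of 4 strain labels: C57BL6 (49 cells), mice without a reporter whose cells were sorted by antibodies to PDGFRα or PDGFRβ; Cspg4dsRED (46 cells), carrying a red reporter driven by the Cspg4 (NG2) promoter; PdgfrbGFP (81 cells), carrying a green reporter driven by Pdgfrb; and a label that pools PdgfraGFP and PdgfrbGFP reporter mice (53 cells), called the pool here, with soleus muscles of 1 mouse of each line dissociated together. The reporter lines had been crossed back to the C57BL/6J background. Acta2GFP mice carried a green reporter driven by the smooth muscle actin gene Acta2, and elastase was added in the dissociation. This label held 2 cells of the cluster, which entered no fit. Its sums of other clusters with 3 or more cells entered the joint fit over all fibroblast clusters. The sorts left out cells positive for the endothelial antigen CD31, and the labels name no treatment. The labels name no animal, so the strain label was the unit of replication, and strain, reporter, sort and, for most strains, plate cannot be told apart.

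Skeletal muscle is wrapped in layers of connective tissue. Fibroblasts of the innermost layer, the endomysium, lie between single fibres next to capillaries, and those of the perimysium lie between fibre bundles in a matrix closer to that of tendon. In each layer they lay down collagens, proteoglycans and basement membrane proteins. The markers of cluster 6 come from several kinds of pathway: Sfrp5 is a secreted antagonist of Wnt ligands, Angpt4 an angiopoietin that binds the endothelial receptor Tie2, Clec1a a C-type lectin-like receptor and Ptgir the receptor of prostacyclin. Klf5 is a zinc-finger transcription factor of the Kruppel-like family, Meox1 a homeobox factor of the somite and its derivatives, and Cyp2f2 a cytochrome P450 that oxidises small foreign molecules.

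Of the 7 markers, 4 matched a RefSeq promoter entry. Their sequences over the 250 bases before the transcription start (GRCm38.p6) are shown because these genes share their highest mean level in cluster 6. Capitals mark CACCC or its reverse complement GGGTG, the core bound by Kruppel-like factors, and TATAAA or its reverse complement TTTATA, the TATA box.
Sfrp5 (chr19:42202253-42202502, minus strand): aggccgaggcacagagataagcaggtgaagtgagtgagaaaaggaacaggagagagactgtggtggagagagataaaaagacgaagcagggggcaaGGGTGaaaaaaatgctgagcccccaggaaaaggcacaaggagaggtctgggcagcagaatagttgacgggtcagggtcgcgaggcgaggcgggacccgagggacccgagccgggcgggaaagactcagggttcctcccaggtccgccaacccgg
Cyp2f2 (chr7:27119705-27119954, plus strand): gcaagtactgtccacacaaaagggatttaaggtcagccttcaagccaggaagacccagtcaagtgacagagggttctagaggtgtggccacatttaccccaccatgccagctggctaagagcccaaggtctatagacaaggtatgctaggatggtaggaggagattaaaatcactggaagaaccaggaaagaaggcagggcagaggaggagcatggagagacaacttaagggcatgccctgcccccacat
Angpt4 (chr2:151910957-151911206, plus strand): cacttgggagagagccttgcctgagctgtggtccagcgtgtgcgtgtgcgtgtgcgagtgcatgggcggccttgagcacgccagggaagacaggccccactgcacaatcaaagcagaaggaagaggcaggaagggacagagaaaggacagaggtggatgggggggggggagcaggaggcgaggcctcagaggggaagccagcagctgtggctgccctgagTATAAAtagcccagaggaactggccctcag
Ptgir (chr7:16906240-16906489, plus strand): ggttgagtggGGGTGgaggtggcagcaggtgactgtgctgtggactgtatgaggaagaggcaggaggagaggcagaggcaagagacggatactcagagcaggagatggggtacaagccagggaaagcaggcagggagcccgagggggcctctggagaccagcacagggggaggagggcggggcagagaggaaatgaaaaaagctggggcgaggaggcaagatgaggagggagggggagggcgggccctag
CACCC was found once in the Sfrp5 window, 154 bases before the start, and once in the Ptgir window, 240 bases before it, in both as GGGTG. The Cyp2f2 and Angpt4 windows held none. Of 32851 RefSeq windows of the same length, 52.0% held this motif on one strand or the other. TATAAA was found in the Angpt4 window alone, 30 bases before the start, against 12.4% of all windows. Klf5, Clec1a and Meox1 had no entry.

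The label was checked against genes that define muscle cell types. A gene was called detected in a cell at 100 or more counts per 500000, the limit used throughout. Dcn, the proteoglycan decorin, was detected in 100% of the cluster 6 cells, Col1a1 in 97.4%, the progenitor antigen Cd34 in 92.2% and Pdgfra in 74.5%. The endothelial genes Pecam1, Cdh5 and Kdr, the pan-leukocyte gene Ptprc, the Schwann cell factor Sox10, the satellite cell factor Pax7 and the adipocyte gene Adipoq each reached this limit in 0 of the 231 cells, and the contractile gene Myh11 in 0.87% against 95.7% of mural cells. With each cell thinned to 40000 counts and a limit of 1 count, Pecam1 was found in 24.2% of cluster 6 cells and 18.1% of the other fibroblasts, Myh11 in 16.5% and 15.8%, Kdr in 3.03% and 3.45% and Cdh5 in 2.16% and 3.67%, so low counts of these genes were present. The fibre gene Acta1 was detected in 19.1% of the cells, close to the 14.7% of the other fibroblasts. The perimysial genes Scx and Col11a1 reached the limit in 0 cells, against 8.24% and 14.8% of the other fibroblasts, but Col11a1 was also at 0, 0.23 and 0% in the endomysial clusters 1, 3 and 8. Perimysial genes were not all absent. Tnmd was detected in 3.9% of cluster 6 cells against 26.6% of the other fibroblasts, and Thbs4 in 23.8% against 46.7%. Clusters 1, 3 and 8 held Thbs4 in 6.21, 34.1 and 7.11% of cells. By these genes the cells were fibroblasts.

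Depth differed between strains more than between clusters. The 231 cells held 60015548 counts, with a median of 222727 per cell and a range from 48930 to 798883. The median number of genes per cell was 2248 in Cspg4dsRED and between 4042 and 5498 in the other 3 strains, so values of Cspg4dsRED rest on the fewest genes. In Cspg4dsRED the other fibroblasts were also of a different kind, with 37 of 61 cells from cluster 10 and 16 from cluster 2, a perimysial cluster. The comparison with the other endomysial clusters is given with and without this strain.

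Cluster 6 made up 14.8% of all fibroblasts, with a 95% exact binomial interval from 13 to 16.6% that, like all intervals here, covers counting error only. The share was 13.5% in C57BL6, 13.7% in PdgfrbGFP and 13.2% in the pool, which lie inside one another's intervals. It was 43.0% in Cspg4dsRED (33.5 to 52.9%) and 1.98% in Acta2GFP (0.241 to 6.97%). The first stands above and the second below every other strain. With mural cells in the denominator the Cspg4dsRED share was 25.4%. The reporters select cells by different genes, and the selection and the share cannot be told apart. Where muscles were kept apart, cluster 6 made up 11.6% of the gastrocnemius and 15.3% of the soleus fibroblasts in the pool, and 17.6% of the gastrocnemius and 11.9% of the soleus fibroblasts in PdgfrbGFP. The order of the muscles was opposite in the 2 strains and the intervals overlapped in both.

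**Figure D1:**
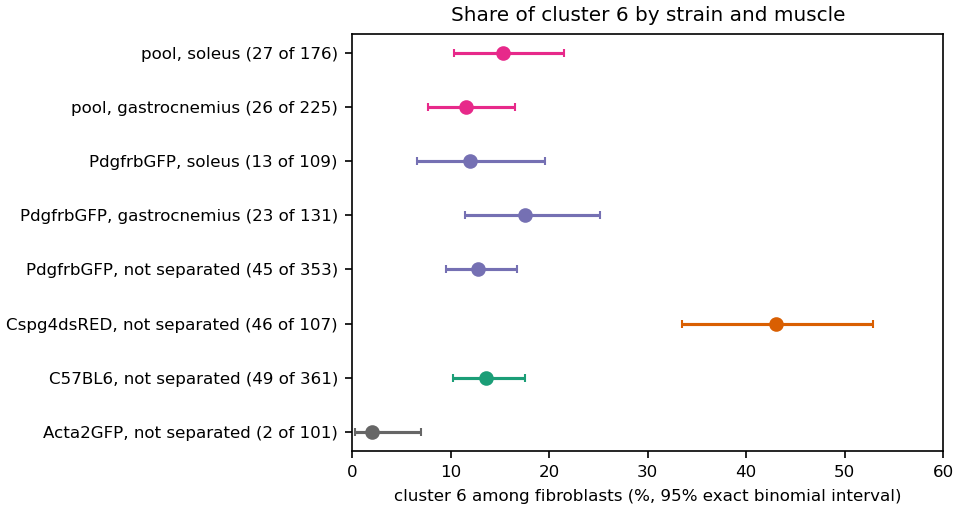
Share of cluster 6 among the fibroblasts of each plate and muscle set with 10 or more fibroblasts (x axis, percent; bars, 95% exact binomial interval; brackets, cluster 6 cells of all fibroblasts), by strain. The Cspg4dsRED set lies at 43.0% and the Acta2GFP set at 1.98%, and the other 6 sets lie between 11.6 and 17.6%. A further plate with 0 of 3 fibroblasts in cluster 6 is not drawn.

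No marker was found in all cells of the cluster. Meox1 was detected in 67.5% of the cells, Clec1a in 42.4%, Ptgir in 31.6%, Klf5 in 27.7%, Cyp2f2 in 19.9%, Angpt4 in 11.3% and Sfrp5 in 1.73%. In the other fibroblasts the shares were 20.9, 8.61, 6.97, 3.15, 1.5, 1.2 and 0.07%, in the same order. In mural cells, taken as the class outside the fibroblasts, with a median of 156959 counts per cell against 222727, 5 of the 7 were detected in 0 cells, while Ptgir reached 1.07% and Angpt4 8.02%, so Angpt4 came near the mural level. With each cell thinned to 40000 counts and a limit of 1 count, which evens out depth, the cluster 6 shares were 76.6% for Meox1, 52.8% for Clec1a, 39.0% for Ptgir, 36.4% for Klf5, 27.3% for Cyp2f2, 15.6% for Angpt4 and 5.19% for Sfrp5. The order of the genes was the same, but Sfrp5 was then found in 7.49% of mural cells and in 16.1% of cluster 10, so at an even depth its share in cluster 6 was no higher than that background. Angpt4 was found in 12.8% of mural cells, and the other 5 markers in 0.53 to 12.8% of them.

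A cluster 6 cell held a median of 2 of the 7 markers. None was detected in 20 cells, 1 in 56, 2 in 84, 3 in 46, 4 in 20 and 5 in 5 cells, and no cell held 6 or 7. At least 3 markers were detected in 30.7% of the cluster 6 cells and in 0.37% of the 1335 other fibroblasts. No marker was detected in 8.66% of the cluster 6 cells, against 63.1% of the other fibroblasts. Among the strains, at least 3 markers were held by 49.1% of cells in the pool, 34.7% in C57BL6, 21.7% in Cspg4dsRED and 21% in PdgfrbGFP. Of the 156 cells with Meox1, 65 also held Clec1a, 56 Ptgir, 45 Klf5 and 32 Cyp2f2. Klf5 was detected in all 4 cells with Sfrp5, and Meox1 in none of them. The genes were used in the clustering, so these counts describe the cluster and test nothing.

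**Figure D2:**
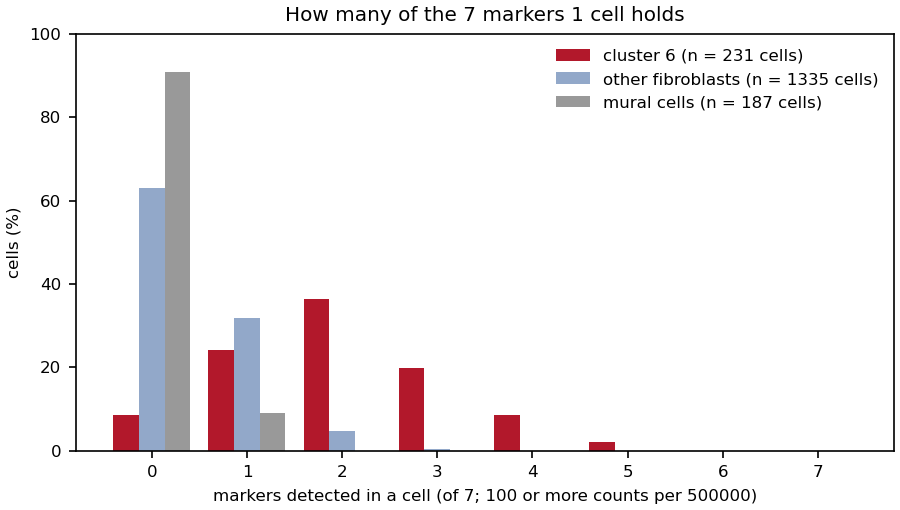
Number of the 7 markers detected in a cell (x axis) against the percentage of cells (y axis), for cluster 6, the other fibroblasts and mural cells. The cluster 6 bars peak at 2 markers and reach 5, while 63.1% of the other fibroblasts and 90.9% of the mural cells held none.

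Levels were then compared on sums of counts per strain, given as log2 CPM (the log of the share of a sum's counts that a gene takes) after TMM scaling, always in the order C57BL6, Cspg4dsRED, PdgfrbGFP and pool. Klf5 (ENSMUSG00000005148, chr14:99298691-99315036, GRCm38) was at 7.40, 8.34, 7.5 and 7.52 in cluster 6 and at 3.70, 4.84, 4.72 and 4.05 in the other fibroblasts. All 4 cluster 6 values lay above all 4 of the others, with a log2 fold change of 3.42 ± 0.24 (standard error of the fit, as below; n = 4 strains). Clec1a (chr6:129424772-129452000) was at 7.52, 8.13, 8.06 and 8.43 in cluster 6 against 5.45, 5.42, 5.69 and 5.49. The groups were again apart, by 2.58 ± 0.21. Meox1 (chr11:101877510-101894374) was at 9.57, 10.51, 9.24 and 8.68 against 7.60, 8.90, 6.93 and 6.20. It was higher in cluster 6 in each strain, by 2.15 ± 0.18, though the groups overlapped because both values of Cspg4dsRED were high.

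Ptgir (chr7:16906490-16910905) was at 7.88, 8.79, 7.19 and 7.67 in cluster 6 and at 4.70, 3.93, 5.76 and 4.85 in the other fibroblasts. Cyp2f2 (chr7:27119909-27133660) was at 8.38, 8.73, 6.8 and 8.92 against 3.83, -0.06, 3.19 and 4.25. Angpt4 (chr2:151911210-151945337) was at 8.58, 7.22, 4.36 and 7.02 against 4.53, -0.52, 2.79 and 2.09. All 3 were higher in cluster 6 in each of the 4 strains, and the groups did not overlap for Ptgir and Cyp2f2, but the size of the difference ranged widely over strains and none passed the threshold of an adjusted p of 0.05. Another gene shares 13.5% of the exonic bases of Cyp2f2, which makes its counts less certain, and 5 cells carried 52.4% of the Angpt4 counts.

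Sfrp5 (chr19:42197971-42202252), the first gene of the label, went against it in part. Its level in cluster 6 was -3.45, 8.66, -1.59 and 5.36 and that in the other fibroblasts 1.32, 2.14, -2.71 and -1.89. It was thus lower in cluster 6 in C57BL6 and near the floor of the scale in PdgfrbGFP, and high only in Cspg4dsRED and the pool. Of its 2937 counts in the cluster, 99.0% came from 5 cells. Klf5, Clec1a and Meox1 were thus higher in every strain, and Sfrp5 was high in a few cells.

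Against single clusters, cluster 6 had the highest mean of the 9 fibroblast clusters for all 7 markers, as the rule would give. The next cluster differed by gene. For Klf5 the mean over strains was 7.73 ± 0.44 (SD, n = 4) in cluster 6 and 6.29 ± 0.57 in cluster 8, whose values from 5.50 to 6.81 stayed below the lowest in cluster 6, 7.44. For Meox1 the next were the perimysial clusters 2 and 9, at 8.12 ± 0.38 (n = 5) and 7.95 ± 0.32 against 9.54 ± 0.77, again with no overlap. For Clec1a the next was cluster 10 at 6.43 ± 0.86 (n = 3) against 8.07 ± 0.38, and for Ptgir cluster 3 at 6.38 ± 0.57 against 7.92 ± 0.67, both without overlap. For Cyp2f2 and Angpt4 the next was cluster 5, at 6.00 ± 2.92 and 3.96 ± 5.84 (n = 3), whose highest values, 8.68 and 8.5, lay inside the range of cluster 6, so for these genes clusters 6 and 5 did not differ beyond their spread. Cluster 5 held 31 cells. In the order of the Klf5 levels, cluster 10 followed at 3.07 ± 4.94 and cluster 5 at 3.06 ± 2.74, neighbours that overlap.

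**Figure D3:**
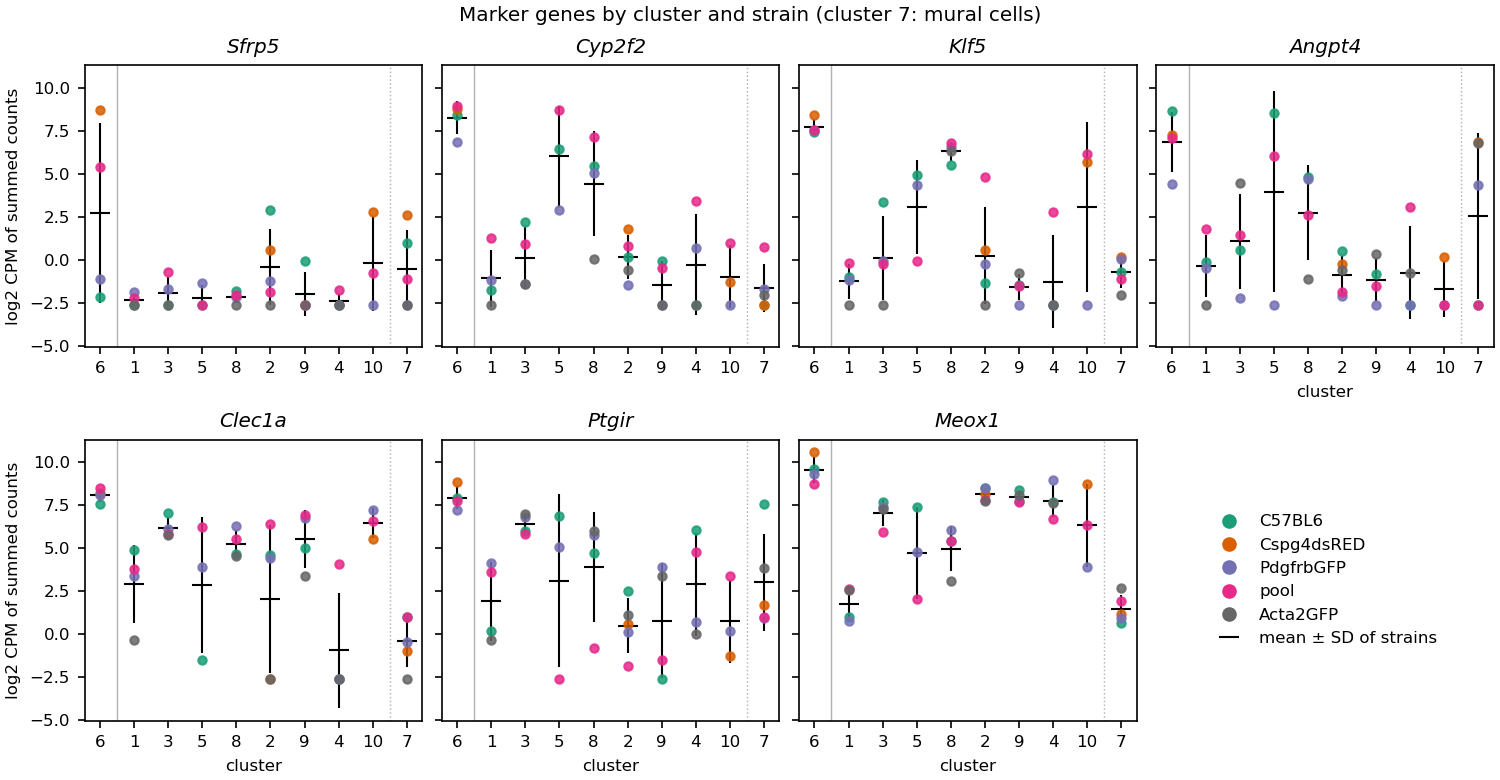
Level of each marker (y axis, log2 CPM of counts summed per strain and cluster) by cluster (x axis; cluster 6 first, then the endomysial clusters 1, 3, 5 and 8, the perimysial clusters 2 and 9, the paramysial cluster 4, cluster 10, and the mural cluster 7 last); points are strains with 3 or more cells and bars the mean ± SD. Cluster 6 is highest on average in each panel, closely spaced for Klf5 and Clec1a and widely spread for Sfrp5.

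Across all genes, 55 of 14669 (0.375%) differed between cluster 6 and the other fibroblasts by edgeR's quasi-likelihood test with strain as a block, 21 (0.143%) higher and 34 (0.232%) lower in cluster 6. The authors had formed the clusters from these same counts, so such a call says only how evenly a difference recurs over strains and is no independent evidence. The median log2 fold change of all genes was -0.11. The groups were fully apart in 822 genes (5.6%). The count was 98 without Cspg4dsRED, 5 without the pool and 2 without C57BL6 or without PdgfrbGFP, and DESeq2 called 854 (5.82%). Of the 7 markers, Klf5, Clec1a and Meox1 were called. Each of the 3 lost its call without C57BL6, without PdgfrbGFP and without the pool, at log2 fold changes of 2.00 to 3.61. Klf5 and Clec1a also lost it at equal cell numbers (4.18 and 3.4) and Meox1 with no strain block (1.95).

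Further genes were called higher. Ddit4l, an inhibitor of mTOR signalling, was at 7.37, 5.68, 6.02 and 5.81 in cluster 6 and at 3.65, 1.85, 2.60 and 2.28 in the other fibroblasts, a log2 fold change of 3.69 ± 0.32 with no overlap. Fgl2, a fibrinogen-like secreted protein, was at 9.40, 7.49, 9.68 and 9.39 against 7.19, 4.98, 7.17 and 6.47, higher by 2.59 ± 0.16 and detected in 64.1% against 18.3% of cells. Its cluster 6 level was lowest in Cspg4dsRED, but so was its level in the other fibroblasts. Tsc22d1, a leucine zipper protein induced by TGF-beta, was at 10.41, 11.26, 9.80 and 9.54 against 8.32, 8.67, 8.04 and 8.19. It was higher by 2.00 ± 0.22 with no overlap and was detected in 85.3% of cluster 6 cells. Tmem176b, a membrane protein, was higher by 2.06 ± 0.21 and Susd2, a surface protein with a sushi domain, by 2.01 ± 0.20, both apart from the others in every strain. Meox2, the second Meox homeobox gene, was at 9.67, 9.96, 9.76 and 9.53 against 8.5, 8.61, 8.5 and 7.67, higher by 1.47 ± 0.16. Serpine2, an inhibitor of serine proteases, was higher by 1.57 ± 0.12 and detected in 92.2% of the cells. Penk, the precursor of enkephalins, was higher by 1.80 ± 0.17, though 14.3% of its exonic bases are shared with another gene.

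The genes called lower included many of tendon and perimysium. Col11a1 and Col11a2, the α chains of type XI collagen, were at 1.26, -0.64, 0.29 and -1.36 and at -0.10, -2.07, -2.23 and -0.19 in cluster 6. In the other fibroblasts they lay between 5.53 and 7.70 and between 4.83 and 6.83, and neither was detected in a cluster 6 cell. Tnc, the glycoprotein tenascin C, was at 3.55, -0.64, 1.27 and 1.14 against 8.86, 8.21, 7.58 and 7.21, lower by 6.31 ± 0.58 on the log2 scale. Wif1, a secreted Wnt inhibitor, was at 1.42, 2.10, 1.00 and -1.21 against 7.53, 8.78, 7.42 and 5.07, a log2 fold change of -6.35 ± 0.24. With each other fibroblast cluster weighted alike, so that large clusters do not dominate, the values were -1.09 for Wif1 and -2.03 for Col11a2, neither called, and -3.20 for Col11a1 and -2.66 for Tnc, both called. Fmod and Kera, proteoglycans of tendon, had log2 fold changes of -3.89 ± 0.16 and -5.89 ± 0.41, and -1.58 and -1.42, not called, with clusters weighted alike. Chad, a leucine-rich matrix protein of cartilage, was at -4.44 ± 0.20 (-1.26, not called, weighted alike) and the thrombospondin Thbs4 at -2.95 ± 0.20. Of the 10 tendon and perimysial genes listed, 5 were called lower and 0 higher, beside 0.232% and 0.143% of all genes. All 10 had negative fold changes with a median of -4.05, where 8303 of all 14669 genes were negative. The direction did not hold among the endomysial clusters. Against the other endomysial clusters 7 of the 10 had positive fold changes with a median of 0.51 and 0 calls. Of all 14290 genes there, 8183 were positive, with a median of 0.16. Against clusters 1, 3 and 8 it was 9, 7 and 8 of 10, with medians of 1.35, 0.38 and 0.98. These contrasts gave 1, 1 and 0 calls, both higher. Of all 16308 genes in them, 9041, 8166 and 8541 were positive. Of 5 paramysial genes 1 was called lower, with a median of -4.30. The summed level of the tendon and perimysial list was 993 to 3383 CPM in cluster 6 and 3939 to 14852 CPM in the other fibroblasts.

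Other genes called lower carried no tendon name. They were Insc, an adaptor of spindle orientation, with -7.32 ± 0.79, the noradrenaline transporter Slc6a2 with -6.96 ± 0.73, Cgref1 with -6.95 ± 0.77, Ddah1, an enzyme that breaks down methylated arginines, with -6.81 ± 0.74, the urotensin receptor Uts2r with -6.66 ± 0.48, and Scube2, a secreted carrier of Hedgehog proteins, with -6.53 ± 0.57. Each of these 6 reached the detection limit in 0 cells, and the cluster held 20 to 51 counts of each, so the size of these fold changes rests on few counts. Genes of the matrix and of signalling with higher levels were lower by less. Efemp1, a fibulin of elastic fibres, was at 5.28, 5.25, 6.01 and 5.42 against 8.59, 9.88, 8.83 and 8.99 (-3.51 ± 0.32). C3, the central complement component, was at 7.87, 3.25, 7.97 and 7.51 against 10.41, 6.93, 10.47 and 9.94 (-2.70 ± 0.25), low in Cspg4dsRED in both groups. Hsd11b1, which regenerates active glucocorticoid, was at 6.55, 6.13, 6.47 and 6.17 against 8.30, 8.40, 8.84 and 9.02 (-2.25 ± 0.21). Col12a1 (-2.22 ± 0.20), the chemokine scavenger Ackr3 (-1.46 ± 0.17), Igfbp4, which binds insulin-like growth factors (-1.29 ± 0.12), and the ligand Bmp7 (-6.26 ± 0.58), with 30 counts in the cluster, were also lower. With clusters weighted alike, 17 of the 22 named lower genes were no longer called, while all 11 named higher genes were. Insc was then at -3.65, Slc6a2 at -4.46, Ddah1 at -2.92, Uts2r at -1.12, Scube2 at -3.02, Efemp1 at -1.38, C3 at -1.07, Hsd11b1 at -0.48, Col12a1 at -0.15, Ackr3 at -0.58 and Bmp7 at -3.02, none called, and Cgref1 at -5.44 and Igfbp4 at -1.09, both called. In the same fit Sfrp5, Cyp2f2, Angpt4 and Ptgir were called higher.

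**Figure D4:**
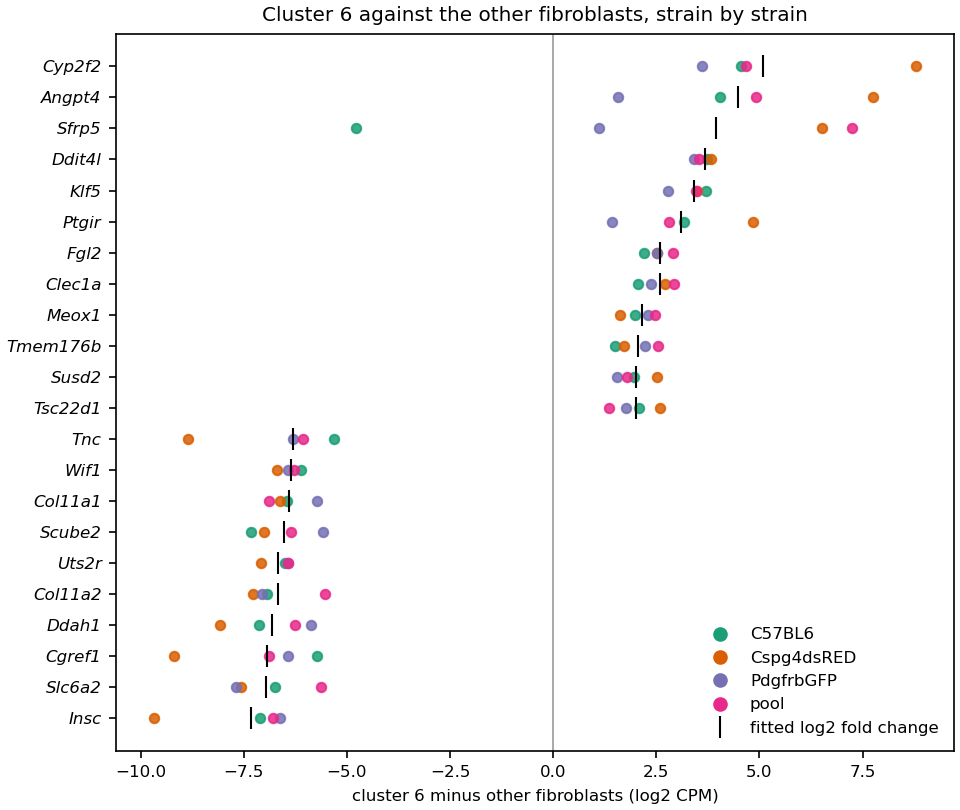
Difference between cluster 6 and the other fibroblasts in each strain (x axis, log2 CPM; points) and the fitted log2 fold change (bar) for the 7 markers and the genes called with the largest changes (y axis). The points of Klf5, Clec1a, Meox1 and Ddit4l lie together, those of Sfrp5 fall on both sides of 0, and those of the 10 lower genes lie beyond -5.

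By pathway, called members are set beside the 0.375% of all genes called in this comparison. At that share a list of this size would hold few calls or none. Among 38 tested Wnt ligands, receptors and modulators, 0 were called higher and 1, Wif1, lower, with a median of -0.18. Rspo3, an activator of Wnt signalling, was at 6.25, 4.21, 4.75 and 6.02 against -0.26, 3.92, 0.66 and 2.87, and Sfrp2, a relative of Sfrp5, at 3.93, 0.07, 4.91 and 1.33 against 7.73, 5.15, 7.57 and 6.38, neither called. Of 17 angiopoietin and VEGF genes 0 were called in either direction, with a median of -1.30. Angpt1, the main Tie2 ligand, was at 6.23, -4.83, 6.57 and 6.03 against 6.05, -4.83, 5.83 and 5.75, not called, where -4.83 stands for 0 counts. Of 19 genes of prostanoid synthesis and reception 0 were called, with a median of 0.17. Ptgis, the prostacyclin synthase, was at 1.32, 2.17, 5.86 and 4.36 against 8.07, 9.60, 7.79 and 7.09, lower in each strain, and its receptor gene Ptgir was higher in each, and both missed the threshold. Among 14 Kruppel-like factors Klf5 alone was called, with a median of -0.27, and among 42 mesenchymal transcription factors 2, Meox1 and Meox2, with a median of -0.04. Of 24 interstitial collagens 4 were called lower and 0 higher, with a median of -0.76, and Col1a1 was at 11.69, 11.50, 11.56 and 11.79 against 12.47, 12.98, 12.42 and 12.36, not called. Against the other endomysial clusters 0 of 21 collagens were called, with a median of -0.27. Against cluster 1 alone 2 of 25 were called higher and 0 lower, with a median of 0.34, where 1.01% of all genes were higher. Against clusters 3 and 8 the medians were -0.20 and 0.10, with 0 calls.

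Lists of other cell types held no called gene in this comparison. Of 11 mural, 9 endothelial, 4 immune, 6 Schwann, 6 muscle fibre and satellite, and 4 adipocyte genes tested, 0 were called. With 0.375% of all genes called, lists this short would rarely hold a call. The summed adipocyte list was nevertheless higher in cluster 6 in each strain, at 960, 1097, 908 and 728 CPM against 700, 267, 885 and 695 CPM, and the muscle fibre list in 3 of 4, at 240, 325, 269 and 98.8 CPM against 158, 203, 167 and 215 CPM. Single genes of these lists were mixed. Fold changes were positive for 2 of the 4 adipocyte genes (median -0.02) and 3 of the 6 muscle genes (median -0.26). The summed mural list was 201 to 814 CPM in cluster 6 against 18022 to 28609 CPM in mural cells, and the endothelial list 30.7 to 52.7 CPM. The perineurial list was at 59.4, 761, 33.4 and 213 CPM in cluster 6 against 24.2, 93.5, 36.2 and 54.0 CPM, higher in 3 of 4 strains. Its 4 tested genes all had positive fold changes against the other endomysial clusters, with a median of 2.64. Of all 14290 genes there, 8183 were positive. Against clusters 1, 3 and 8 the positive ones were 4, 3 and 3 of 4, with medians of 2.79, 3.00 and 1.61. Cldn1 was called higher against clusters 1 (8.39 ± 1.61) and 3 (8.03 ± 1.52), and 0 genes of the list were called against cluster 8. The claudin Cldn1 was at 3.96, 7.62, 3.35 and 7.08 in cluster 6 and the integrin subunit Itgb4 at -4.83, 7.72, 4.13 and 4.54. Immediate early and dissociation genes summed to 10708 to 18646 CPM in cluster 6 and 10723 to 39543 CPM in the others, with 0 of 26 called, and the part of these lists in the results was not tested.

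Against the other endomysial clusters (1, 3, 5 and 8), 0 of 14290 genes were called by edgeR, while 555 (3.88%) had an unadjusted p under 0.05 and DESeq2 called 312 (2.23% of its 14012). In Cspg4dsRED this comparison rests on 5 endomysial cells. Without that strain 76 of 16336 genes (0.465%) were called with 3 strains, 39 higher (0.239%) and 37 lower (0.226%). The markers Meox1 (3.05 ± 0.15), Klf5 (3.03 ± 0.26) and Cyp2f2 (3.82 ± 0.22) were among the higher, as were Clu, the chaperone clusterin (3.22 ± 0.13), Fst, the activin antagonist follistatin (1.64 ± 0.15), Meox2 (1.55 ± 0.16) and Col8a2, a chain of the network collagen VIII (4.15 ± 0.27). In the same 3 strains the basement membrane genes Lamb1 (-1.76 ± 0.15), Lama4 (-1.22 ± 0.14), Lamc1 (-1.12 ± 0.13) and Nid1 (-0.91 ± 0.11) were lower, that is 3 laminin chains and nidogen. Lamb1 was at 7.33, 6.87 and 7.63 in cluster 6 of C57BL6, PdgfrbGFP and the pool. Of the secreted and matrix genes, Lox (-2.50 ± 0.19), which crosslinks collagen and elastin, Efemp1 (-3.66 ± 0.26), C3 (-2.93 ± 0.14), the alarmin Il33 (-1.42 ± 0.16) and the B-cell chemokine Cxcl13 (-6.21 ± 0.67) were lower, as was Aldh1a3, an enzyme of retinoic acid synthesis (-5.01 ± 0.54). These calls came from the fit without 1 strain, and they were not made with all 4. With all 4 strains, 0 of the 22 listed basement membrane genes tested were called. Of these, 6 were positive, with a median of -0.48, where all genes had a median of 0.16. Against cluster 1 alone 15 of 25 were positive, with a median of 1.03, 2 called higher and 1 lower. Against clusters 3 and 8 it was 6 and 10 of 25, with medians of -0.72 and -0.18 and 0 calls.

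Of the 3 endomysial clusters compared one by one (1, 3 and 8), cluster 8 gave the fewest calls against cluster 6, with 18 of 16308 genes called (0.11%), 6 higher (0.0368%) and 12 lower (0.0736%), and 191 (1.17%) by DESeq2. All 3 contrasts with single clusters share the cluster 6 sums and, with under 3 Cspg4dsRED cells in clusters 1, 3 and 8, rest directly on C57BL6, PdgfrbGFP and the pool, in this order below. The count was 0 without the pool, 7 without PdgfrbGFP and 11 without C57BL6. Meox1 was at 9.60, 9.28 and 8.72 in cluster 6 and at 5.38, 6.02 and 5.39 in cluster 8, higher by 3.87 ± 0.78. Gfra1, a receptor of glial cell line-derived neurotrophic factor, was at 6.68, 6.86 and 7.01 against -0.43, 0.26 and 1.33. Plekha6 (4.19 ± 0.78), Myoc, the secreted protein myocilin (3.30 ± 0.58), and Aspn, the proteoglycan asporin (2.04 ± 0.31), were also higher. Myoc was detected in 98.3% of the cluster 6 cells, at 11.87, 12.41 and 11.72 against 9.22, 9.54 and 7.84. Lower in cluster 6 were Acsbg1, an acyl-CoA synthetase (-9.48 ± 1.5), Mlana (-8.63 ± 1.64), the carboxypeptidase Cpz (-7.11 ± 1.33), Abcc9, a subunit of ATP-sensitive potassium channels (-7.01 ± 1.40), and the semaphorin Sema3b (-4.56 ± 0.68). Klf5 was not called between clusters 6 and 8, with 0.70 on the log2 scale in the joint fit over all fibroblast clusters. Its levels in these clusters nevertheless did not overlap, as given above.

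Against cluster 3, the largest endomysial cluster with 440 cells, edgeR called 28 of 16308 genes (0.172%), 16 higher (0.0981%) and 12 lower (0.0736%), DESeq2 220 (1.35%), and edgeR 3 without the pool, 13 without PdgfrbGFP and 14 without C57BL6. Cyp2f2 was at 8.41, 6.84 and 8.95 in cluster 6 and at 2.22, -1.40 and 0.92 in cluster 3. Cpe, a prohormone-processing carboxypeptidase, was at 9.40, 8.89 and 9.09 against 4.19, 4.42 and 3.69, higher by 5.32 ± 0.91. Dkk3, of the Dickkopf family, was higher by 5.29 ± 1.03, Fam180a by 5.58 ± 1.11 and 1500015O10Rik by 4.79 ± 0.88. Fn1, the matrix protein fibronectin, was at 8.05, 8.34 and 7.21 against 10.69, 9.97 and 10.10, lower by 2.21 ± 0.37, and over all 9 fibroblast clusters its mean was lowest in cluster 6, at 7.87 ± 0.48 (SD, n = 4) with the next, cluster 8, at 10.19 ± 0.58. Hsd11b1 (-3.47 ± 0.71), the glycosyltransferase gene Galnt16 (-6.57 ± 1.19), the carboxylesterase Ces1d (-4.99 ± 1.05) and the adhesion receptor Adgrd1 (-2.84 ± 0.56) were lower too.

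Cluster 1 gave the most calls of the 3, with 248 of 16308 genes called (1.52%), 165 higher (1.01%) and 83 lower (0.509%), 831 (5.1%) by DESeq2, and 83 without the pool, 106 without C57BL6 and 112 without PdgfrbGFP. Klf5 was at 7.44, 7.54 and 7.55 in cluster 6 and at -1.0, -1.18 and -0.21 in cluster 1. The potassium channel subunit Kcng1 was at 5.89, 5.83 and 6.44 against -1.75, -1.87 and -1.68, and Cyp2f2 at 8.41, 6.84 and 8.95 against -1.75, -1.18 and 1.24. D630003M21Rik (8.53 ± 1.35) and Mettl24 (8.5 ± 1.51) were higher as well. Lower in cluster 6 were Dmkn, dermokine (-9.36 ± 1.74), Fam167a (-9.06 ± 1.99), the claudin Cldn3 (-8.95 ± 2.00), the protocadherin Pcdh20 (-8.94 ± 1.92) and Cbln2, a cerebellin (-8.69 ± 1.78), of each of which cluster 6 held 4 to 26 counts. Of 10 genes of adventitial fibroblasts, 1 was higher (Penk, 2.72) and 5 lower, namely Dpp4 (-5.69), Anxa3 (-4.43), Sema3c (-3.70), Pi16 (-3.31) and Il33 (-2.41). Igfbp4 was called lower in each of the 3 contrasts, by log2 fold changes of -1.67, -1.48 and -1.73 against clusters 1, 3 and 8.

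The muscle of origin was not used to form the cluster, so soleus and gastrocnemius could be compared by a test, in the pool (27 and 26 cells) and PdgfrbGFP (13 and 23 cells). With 2 sums per muscle and strain as a block, edgeR called 0 of 11987 genes, 451 (3.76%) had an unadjusted p under 0.05, and DESeq2 called 97 (0.936% of 10360). In the pool the muscles were on different plates and in PdgfrbGFP on one, so plate and muscle cannot be told apart in the pool. Of the markers, Meox1 was at 8.63 in gastrocnemius and 8.79 in soleus of the pool and at 9.88 and 9.51 in PdgfrbGFP, a difference (soleus minus gastrocnemius) of -0.10 ± 0.33. Ptgir was at 7.54 and 7.81 and at 7.05 and 7.37, a difference of 0.30 ± 0.43. Klf5 differed by -0.64 ± 0.52 and Clec1a by -1.06 ± 0.48. Cyp2f2 was at 8.71 and 9.09 in the pool but at 7.30 and -0.30 in PdgfrbGFP, where the 13 soleus cells held 1 count. Klf5 was at 7.48 and 7.62 in the pool and at 8.07 and 6.62 in PdgfrbGFP, and Angpt4 at 6.38 and 7.34 and at 6.90 and -0.30. The strains thus differed in direction for Meox1, Klf5, Cyp2f2 and Angpt4, while Ptgir and Clec1a moved the same way in both. None of these markers passed the correction.

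The genes with the smallest p were named after their values were seen. They moved alike in both strains, which choosing by p in a fit over 2 strains favours, so this likeness is no result. None passed the correction, with an adjusted p of 1.0 by edgeR for each. Hspa1a, a stress-induced heat shock protein, was at 8.58 in gastrocnemius and 5.96 in soleus of the pool and at 9.66 and 5.58 in PdgfrbGFP, a difference of -3.34 ± 0.48, and it was detected in 25 of 49 gastrocnemius and 4 of 40 soleus cells. Dkk2, a Wnt inhibitor of the Dickkopf family, had 922 counts in the pool and 234 in PdgfrbGFP in gastrocnemius and 0 in soleus of both, which allows at most 0.223 and 1.53 CPM there, but its counts came from 6 and 2 detected cells. Aebp1, a collagen-binding protein, was at 4.59 and 7.25 in the pool and at 7.14 and 9.16 in PdgfrbGFP, higher in soleus by 2.36 ± 0.43. Comp, cartilage oligomeric matrix protein, was higher in soleus by 1.84 ± 0.39. Thbs2, a thrombospondin, was lower there by 2.43 ± 0.54 and Ogn, the proteoglycan osteoglycin, by 2.30 ± 0.57. In a fit that asks whether the muscle difference of cluster 6 differs from that of clusters 3 and 8 on the same sets, edgeR called 0 of 14900 genes, with 692 (4.64%) at an unadjusted p under 0.05 and 369 (2.48%) called by DESeq2. For Hspa1a that difference of differences was -0.46 ± 0.45 and for Aebp1 2.68 ± 0.60. It was -8.53 ± 2.85 for Dkk2, 0.11 ± 0.85 for Comp, -1.99 ± 0.93 for Thbs2 and -1.74 ± 0.60 for Ogn, none past the correction. Dkk2 was also lower in soleus in cluster 3, from 221 to 0.048 CPM in the pool and 72.5 to 27.5 CPM in PdgfrbGFP. In cluster 8 it went from 179 to 8.82 CPM and from 65.3 to 12.3 CPM.

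**Figure D5:**
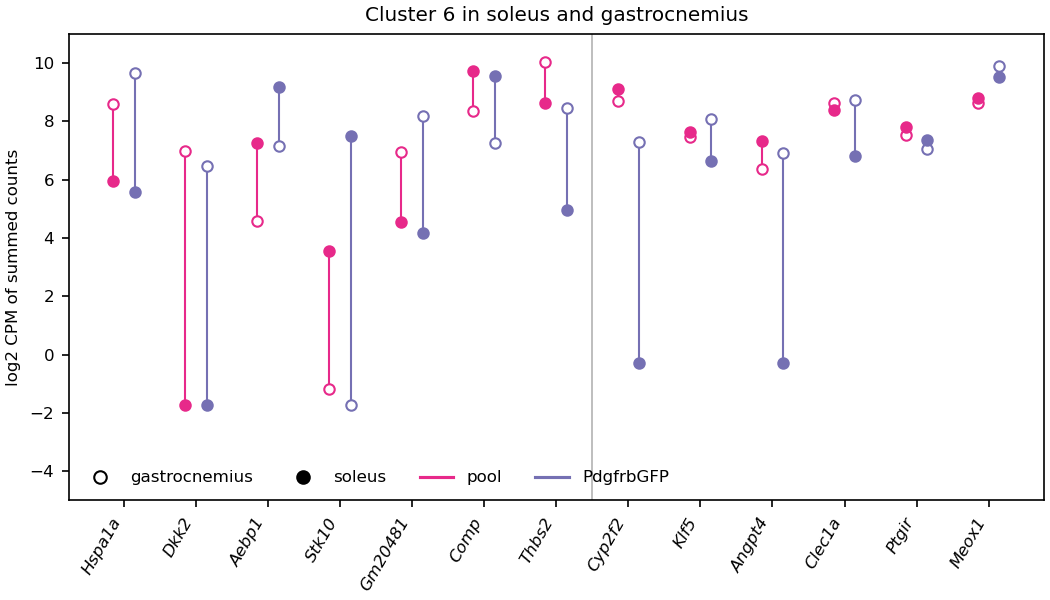
Level in cluster 6 (y axis, log2 CPM of counts summed per strain and muscle) in gastrocnemius (open) and soleus (filled) for 7 genes with the smallest p and, right of the line, 6 markers (x axis), with a line joining the muscles of a strain. The 7 genes move the same way in both strains, which their choice by p favours. Meox1 and Ptgir lie close together, and Cyp2f2 and Angpt4 are lower in soleus in PdgfrbGFP alone.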

How the data were processed

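Single cells were sorted into plates and sequenced by Smart-seq2. The authors mapped reads to GRCm38 (mm10) with TopHat2 and Bowtie, removed doublets with samtools and counted reads per gene with featureCounts, and the deposited values are raw read counts per gene and cell, without molecular identifiers, so copies made by PCR count as separate reads. Strand use is not given in the sources used here. The clusters are the authors' own, made by pagoda2 from these counts. Of 46517 genes 46005 were matched to a symbol and 512 were not, 92 spike-in RNAs (1.31% of all counts) were left out, and 1 column without a label was not used. No pair of cluster 6 columns was identical.

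Counts were summed per strain label with 3 or more cells and tested with edgeR 4.0.16 (quasi-likelihood, TMM, filterByExpr, strain as a block, Benjamini-Hochberg adjusted p under 0.05). Standard errors are the log2 fold change over the root of F. Contrasts with single clusters and the fit with clusters weighted alike came from a joint fit over the sums of all fibroblast clusters. Since the labels name no animal, p-values measure the spread between strain sums, which may be technical. Depth was 48930 to 798883 counts per cluster 6 cell. Cells were compared in 4 plate and muscle sets on 3 plates for soleus and gastrocnemius. Genes were named if called, with an absolute log2 fold change of at least 2 and the same direction in every strain and a mean of at least 5 log2 CPM in the higher group, the 10 largest per direction (5 per single cluster), with up to 4 called genes per list, and genes sharing 10% or more of their exonic bases with another gene were marked uncertain. The members, the 32 gene lists and the tests were chosen with earlier results of these data known. Alternatives were DESeq2 1.42.0, RLE scaling, no low-count filter, plates in place of strains, no block, a minimum of 10 cells, even cell numbers or weights, and each strain left out. The fit was tested on simulated data. Promoter sequences are from RefSeq (GRCm38.p6). Python 3.11.15 was used for tables. An item withheld from the text is not reported here.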

Additional observations from a re-analysis of the deposited data

Results flagged for a closer look

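Of 75 groups of values over strains, 8 held a strain that stood apart from the others by Dixon's test, where chance flags about 1 in 20 groups, and in all 8 the strain was Cspg4dsRED. Its share of cluster 6 among fibroblasts was 42.99%, the highest. Within cluster 6 its Klf5 level was the highest, at 8.34 log2 CPM against 7.40 to 7.52 in the other strains, its Fgl2 level the lowest, at 7.49 against 9.39 to 9.68, and its C3 level the lowest, at 3.25 against 7.51 to 7.97. The difference of cluster 6 from the other fibroblasts was lowest in Cspg4dsRED for Insc (-9.67 against -7.12 to -6.62), Uts2r (-7.09 against -6.50 to -6.42), Kera (-7.44 against -5.68 to -5.34) and C3 (-3.68 against -2.54 to -2.42). The other fibroblasts of this strain were mostly of cluster 10, and it had the fewest genes per cell, with a median of 2248. Their part in these values was not tested.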

How the results depend on the processing

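Counts of called genes depended on the tool and on single strains, and no named gene reversed under any alternative run. The cause was not tested unless stated. Under DESeq2 the counts were 854 (other fibroblasts), 312 (other endomysial clusters), 831, 220 and 191 (clusters 1, 3 and 8), 97 (muscle) and 369 (muscle difference against clusters 3 and 8). Against the other fibroblasts 378 genes were called with clusters weighted alike (345 higher and 33 lower), 84 without the filter and 337 with plates as the unit. Against the other endomysial clusters 76 were called with at least 10 cells, which drops Cspg4dsRED, 7 without the filter and 97 with plates. With at least 10 cells the counts were 74 against cluster 3 and 58 against cluster 8, and in fits of only the 2 clusters compared 386 against cluster 1 and 131 against cluster 3. Without the filter 15 genes were called between muscles. Leaving out 1 strain gave 2 to 98 calls against the other fibroblasts, 0 to 76 against the other endomysial clusters, 83 to 221 against cluster 1, 3 to 33 against cluster 3 and 0 to 15 against cluster 8. Over the named genes against the other fibroblasts, 92 of these fits lost a gene's call, 1 gained one and 55 left it unchanged. With 1 strain left, the muscle comparison has no residual degrees of freedom and no test.

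The fits paired samples by strain. With no replicate block 60 genes were called against the other fibroblasts (16 higher, 44 lower), 3 against the other endomysial clusters, 217, 18 and 14 against clusters 1, 3 and 8, and 0 between muscles. With mural cells in the denominator the Cspg4dsRED share was 25.4%. At 1 count in 40000, detection was 5.19% for Sfrp5, 36.4% for Klf5, 39.0% for Ptgir and 76.6% for Meox1. Depth limits Cspg4dsRED most, and genes with a few counts in the cluster have uncertain fold sizes.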

Other observations

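The 2 cluster 6 cells of Acta2GFP entered no comparison. One, with 126635 counts, held 70 counts of Meox1 and 29 of Ptgir and none of the other 5 markers. The other, with 281886 counts, held 454 of Cyp2f2, 240 of Meox1 and 238 of Ptgir. Both thus held Meox1 and Ptgir, and neither held Klf5, Clec1a, Angpt4 or Sfrp5.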
